A study of Mus musculus with 6 samples.

Results

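The IGF2BP, LIN28 and HMGA families are growth genes of the embryo that fall silent in most adult tissues and return in many cancers, for which they are called oncofetal. The rule took 7 of them by symbol from the 55401 genes of the count table, namely *Igf2bp1*, *Igf2bp2*, *Igf2bp3*, *Lin28a*, *Lin28b*, *Hmga1* and *Hmga2*. The rule itself used no measured value, but the genes were chosen with earlier results of these data known. All 7 passed the filter on low counts, which left 16784 genes to test.

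RNA-seq was performed on whole mouse embryos at mid-gestation (E10.5) with 2 genotypes, wild-type (WT) and 5C, each with 3 libraries. 5C embryos carry 5 extra copies of *Mir483*, placed in tandem by gene targeting in ES cells at the native *Igf2* gene, in whose intron this microRNA lies. WT embryos were littermates without the array and the methods state that a library pools 2 male embryos, so it is not 1 animal. The methods compare *Mir483* excess with its normal dose, and neither genotype received a treatment.

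As background, IGF2BP proteins bind mRNAs, among them that of *Igf2*, and alter their stability, transport and translation. LIN28 proteins bind the precursors of let-7 microRNAs and stop their maturation. HMGA proteins are small architectural factors that bind AT-rich DNA in chromatin. The 3 families are linked by let-7, a microRNA family that rises as tissues differentiate and whose targets include *Lin28a*, *Lin28b*, *Hmga2* and *Igf2bp1*. The extra microRNA of 5C embryos, miR-483, has a different seed. The seed is the stretch of bases 2 to 8 of a microRNA that pairs with target mRNAs.

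The mature sequences are shown to set the seed of the added microRNA beside that of let-7. They come from RefSeq on GRCm38.p6, with the seed in capitals.
miR-483-3p: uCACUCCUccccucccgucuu
miR-483-5p: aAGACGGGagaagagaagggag
let-7a-5p: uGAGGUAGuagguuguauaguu

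The letters AGGAGTG pair with the seed of miR-483-3p, whereas CCCGTCT pairs with that of miR-483-5p. For let-7 the pairing letters are CTACCTC, and 11 mature microRNAs share that seed. The sense strand of the 3′ UTR was searched in the longest coding transcript of each gene. Every one of the 7 genes held at least 1 let-7 match, 17 in all, where 10.6% of 13886 tested genes with a 3′ UTR held one. *Igf2bp1*, *Lin28b* and *Hmga2* held 4 each, a number that 12 of the 13886 genes, or 0.0864%, reached or passed. *Lin28a* held 2, and *Igf2bp2*, *Igf2bp3* and *Hmga1* held 1 each. 3′ UTRs with a let-7 match had a median length of 2420 bases against 1088 bases for those without, and the 3′ UTRs of the 7 genes ran from 1178 bases in *Hmga1* to 6337 bases in *Igf2bp1*. A longer window holds more matches of any kind.

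Matches to miR-483-3p were present in *Igf2bp1*, *Igf2bp2* and *Hmga2*, 1 each, and 12.5% of the same 13886 genes held one. A match to miR-483-5p was present in *Igf2bp1* alone of the 7 genes, against 3.44% of genes. *Igf2bp3*, *Lin28a*, *Lin28b* and *Hmga1* had no match of these letters to either arm in this window. A match is a description of sequence and does not show that a microRNA acts there.

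The 4 matches to miR-483 are printed with the match in capitals, since these are the places where the added microRNA could pair. All lie on the minus strand of GRCm38, in the 3′ UTR, and read 5′ to 3′ along the mRNA.
*Igf2bp1*, miR-483-3p, chr11:95957817-95957846: gtctggtcacatccccaccccaAGGAGTGc
*Igf2bp1*, miR-483-5p, chr11:95961004-95961033: cggaccctccataactgccctcCCCGTCTc
*Igf2bp2*, miR-483-3p, chr16:22060681-22060710: gagcaaaccaaagagcatcccgAGGAGTGc
*Hmga2*, miR-483-3p, chr10:120363507-120363536: ttatggactcatacacagcagcAGGAGTGa

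Of these 4, the *Hmga2* match alone is followed by an adenine, the base that faces position 1 of a microRNA in the strongest class of seed site.

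The let-7 matches of *Igf2bp1* are printed next, with the first match of *Lin28b* and of *Hmga2* for comparison. They stand in the same build, strand and region, with the match in capitals.
*Igf2bp1*, let-7 site 1, chr11:95961778-95961807: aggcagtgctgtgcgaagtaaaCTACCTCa
*Igf2bp1*, let-7 site 2, chr11:95959357-95959386: tgggaaccagcagtgctattaaCTACCTCa
*Igf2bp1*, let-7 site 3, chr11:95958763-95958792: actacgagtataaatggatgaaCTACCTCa
*Igf2bp1*, let-7 site 4, chr11:95958140-95958169: ctgtttcacttttggttttaatCTACCTCt
*Lin28b*, let-7 site 1, chr10:45381022-45381051: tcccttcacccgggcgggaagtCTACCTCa
*Hmga2*, let-7 site 1, chr10:120364224-120364253: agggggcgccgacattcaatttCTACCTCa

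Sites 1 to 3 of *Igf2bp1* are followed by an adenine. The first sites of *Lin28b* and *Hmga2* start 36 and 58 bases after the stop codon, whereas the first site of *Igf2bp1* starts 1715 bases after it.

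**Figure D1:**
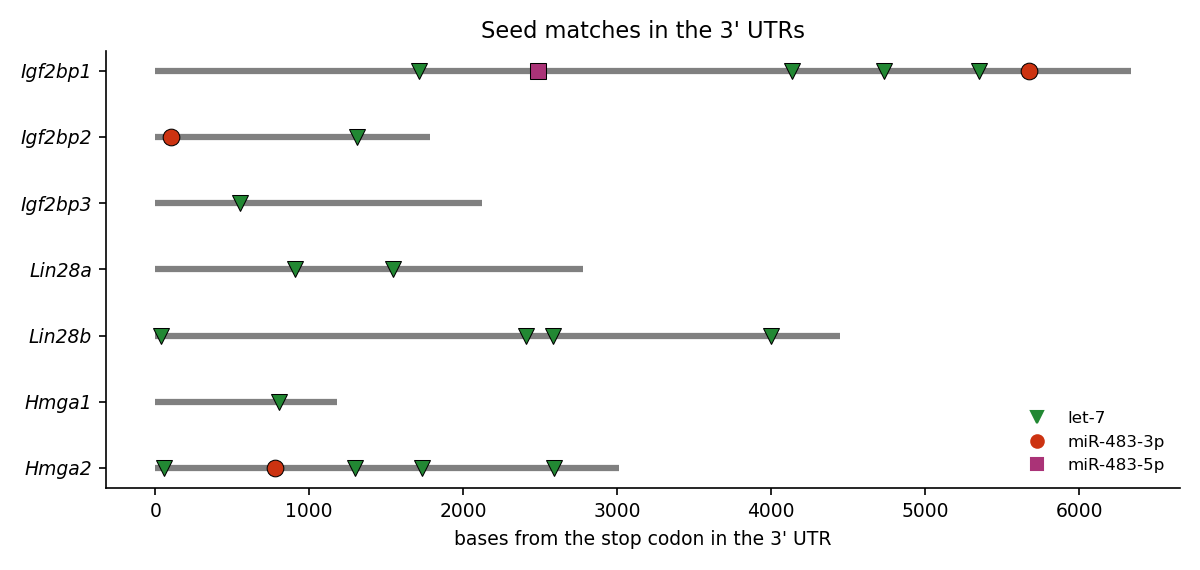
Seed matches in the 3′ UTR of each gene (grey bar, from the stop codon at 0 to the end of the annotated 3′ UTR; x axis in bases), with let-7 matches as green triangles, miR-483-3p matches as red circles and the miR-483-5p match as a purple square. All 7 genes carry a let-7 match, while miR-483-3p matches lie in *Igf2bp1*, *Igf2bp2* and *Hmga2*.

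Library totals ranged from 6357343 to 19151368 counts, and 3 counts, the floor used here, corresponded to 0.157 to 0.472 CPM, the counts relative to library totals that were adjusted by trimmed mean of M values. All 7 genes lay far above that floor. *Mir483* averaged 0.442 ± 0.129 CPM over WT libraries and 4.02 ± 1.33 CPM over 5C libraries (SD, n = 3 each), in the direction of the edit in every library, although counts in mRNA libraries do not measure the mature microRNA. WT replicate 3 held 2 counts of it, below the floor. Its log2 fold change was 3.05, with p 1.01e-05 before and 0.169 after adjustment in edgeR's quasi-likelihood test. Even the edited gene thus did not reach an adjusted p under 0.05. Markers of neural progenitors, heart muscle, paraxial mesoderm and erythroid cells were detected in all 6 libraries, as whole embryos should show. WT replicate 2 and 5C replicate 2 stood apart with 4.12 and 0.0854 CPM summed over 4 Y-linked transcripts, against 130.4 to 212 CPM in the others, although the methods describe male embryos. WT replicate 1 and 5C replicate 3 carried the most yolk sac endoderm markers, with summed levels of 6358 and 1284 CPM against 180.2 to 527 CPM elsewhere. The titles name the libraries as replicates but tie none to a litter, and p-values measure only the spread between these libraries.

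To ask whether these genes differed in embryos with extra *Mir483*, 5C was compared with WT. *Igf2bp1* was the one gene of the 7 with an unadjusted p under 0.05, and it was lower in 5C by 16.7%. *Igf2bp3* was slightly higher in every 5C library, with an interval that spanned no change. The other 5 genes, *Igf2bp2*, *Lin28a*, *Lin28b*, *Hmga1* and *Hmga2*, overlapped between genotypes and their fitted changes were 0.05 or less in size on the log2 scale.

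Read against all genes, 0 of the 7 had an adjusted p under 0.05 with a fold change over 1.5, as had 0 of 16784 genes (0.0%). At an unadjusted p under 0.05, 1 of the 7 was lower, against 3.47% of all genes tested, and 0 were higher, against 2.55%. Libraries of the 2 genotypes did not overlap for 1 gene that was lower, against 5.1% of all genes, and for 1 that was higher, against 6.26%. With 4 genes lower and 3 higher, the median log2 fold change of the 7 was -0.04, and that of all genes tested was -0.00. The median size of the change was 0.046 for the 7 genes and 0.107 for all genes tested. By edgeR's quasi-likelihood test the count of 0 genes past the adjusted threshold stood beside 1011 genes at an unadjusted p under 0.05, and DESeq2 called 11 genes and limma-voom 0.

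**Figure D2:**
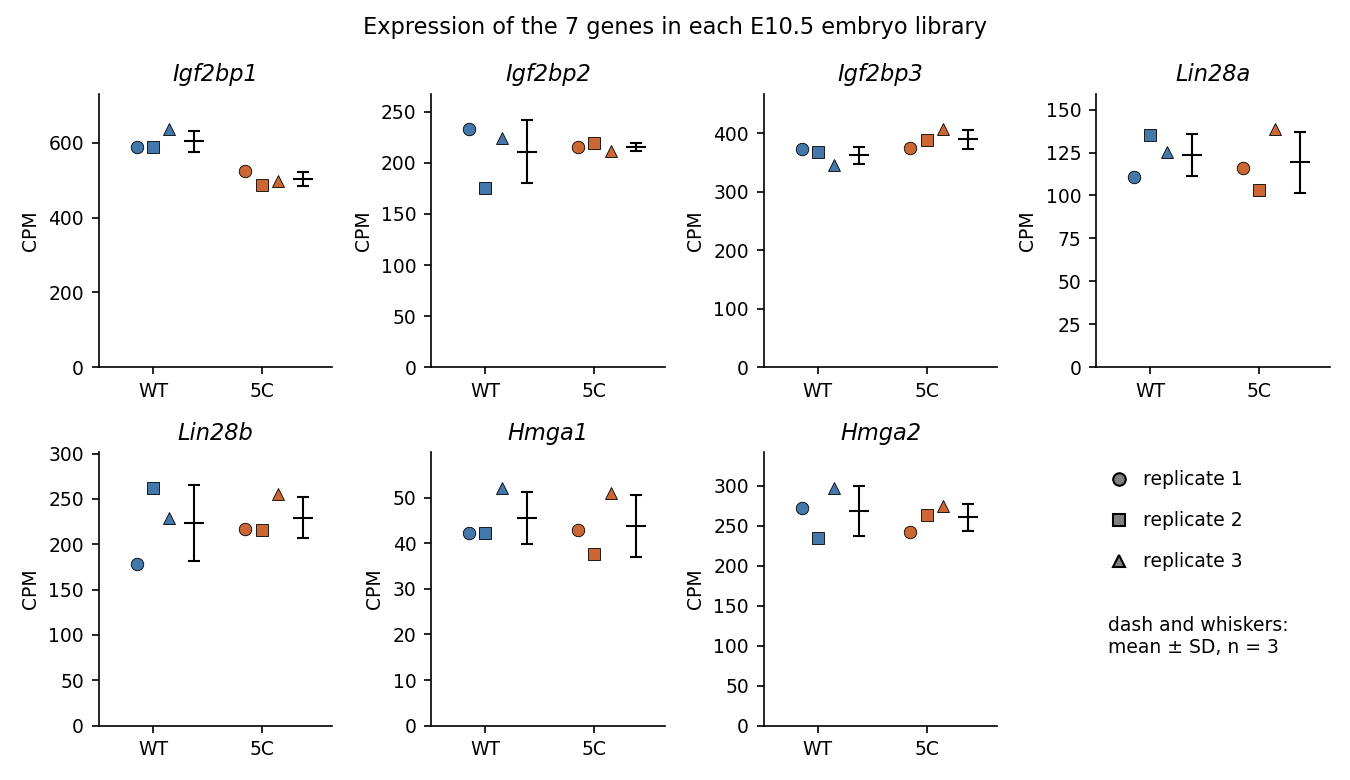
Expression of each gene (CPM, y axis from 0) in the 3 WT and 3 5C libraries; point shape gives the replicate, and the dash with whiskers is the mean ± SD. WT and 5C libraries separate for *Igf2bp1* (588 to 636 against 488 to 524 CPM) and *Igf2bp3*, and overlap for the other 5 genes.

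*Igf2bp1* (ENSMUSG00000013415; GRCm38 chromosome 11, 95957163 to 96005940, minus strand) encodes a protein that binds mRNAs, including *Myc* and *Actb* transcripts, in the embryo. It gave 589, 588 and 636 CPM in the WT libraries, against 524, 488 and 498 CPM in the 5C libraries, on 3987 to 11219 counts per library. Every 5C library lay below every WT library. The means were 604 ± 27.7 CPM for WT against 503 ± 18.4 CPM for 5C (SD, n = 3 each), so the groups were set apart by more than their spread. On the log2 scale this was a change of -0.26 (SE 0.07, 95% interval -0.41 to -0.11). edgeR's quasi-likelihood test gave it an unadjusted p of 0.00299, rank 41 of 16784, and a Benjamini-Hochberg adjusted p of 0.781, so the difference did not pass the correction over all genes.

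*Igf2bp1* stayed lower in 5C when any 1 library was left out, with log2 fold changes from -0.29 to -0.23. It was -0.26 without both libraries low in Y-linked transcripts, -0.28 without WT replicate 1 and -0.26 without 5C replicate 3. Other measures moved with the same genotypes. Summed heart muscle markers (5 of 5 detected, none at 0) were 390 to 486 CPM in WT and 325 to 339 CPM in 5C and did not overlap. The sums of all other marker lists overlapped. *Myh6*, *Myh7* and *Actc1* were lower in 5C without overlap, as were 5.1% of all genes tested, while *Tnnt2* and *Nppa* overlapped. Of the 5, 3 had an unadjusted p under 0.05, and of all genes tested 3.47% were lower and 2.55% higher at that p. Genes with a higher transcript GC content had lower log2 fold changes (Spearman rho -0.312 across 16770 genes, which are not independent of each other). The transcript of *Igf2bp1* is 50.8% GC, against a median of 49.4% for tested genes, and with offsets for GC content its log2 fold change was -0.22. The part of heart muscle markers in the difference was not tested. In bulk embryos, fewer cells that express a gene cannot be told apart from less RNA per cell.

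*Igf2bp3* (ENSMUSG00000029814; chromosome 6, 49085223 to 49214957, minus strand) encodes a close relative of IGF2BP1 that is prominent in fetal tissue. It gave 372, 369 and 346 CPM in the WT libraries, against 374, 388 and 407 CPM in the 5C libraries. Every 5C library lay above every WT library, the nearest pair only just. The means were 362 ± 14.2 and 390 ± 16.4 CPM (SD, n = 3 each). edgeR fitted a log2 fold change of 0.11 (SE 0.07, 95% interval -0.04 to 0.25; adjusted p 0.781), so a change was not shown. Of its exon bases, 1529 lie opposite *Malsu1*, which measured 24.6 ± 1.96 CPM for WT against 24.7 ± 1.60 CPM for 5C (SD, n = 3 each). Which strand column was deposited is not stated, so reads in that stretch could belong to either gene.

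*Igf2bp2* (ENSMUSG00000033581; chromosome 16, 22059009 to 22163299, minus strand) is the family member that remains active in adult tissues. It gave 233, 175 and 224 CPM in the WT libraries, against 215, 220 and 211 CPM in the 5C libraries. WT replicate 2 was the lowest of the 6 libraries, and the 5C values lay inside the WT range. In edgeR's fit, 5C differed by 0.03 on the log2 scale (SE 0.10, 95% interval -0.19 to 0.25; adjusted p 0.959), and it was -0.084 without WT replicate 2.

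Ratios within the family compare genes inside a library, on CPM per kilobase of exon. *Igf2bp1* over *Igf2bp3* was 1.33, 1.34 and 1.55 in WT and 1.18, 1.06 and 1.03 in 5C. The genotypes did not overlap, and the means were 1.41 ± 0.122 and 1.09 ± 0.0785 (SD, n = 3 each; exact two-sided permutation test, p = 0.1, Benjamini-Hochberg adjusted 0.25 over 5 ratios). Since 3 libraries against 3 cannot give a p under 0.1, this design could not pass a threshold of 0.05. The ratio uses the same *Igf2bp1* values as the fit above and adds no independent evidence for them.

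*Igf2bp1* over *Igf2bp2* was 1.93, 2.56 and 2.17 in WT and 1.86, 1.70 and 1.80 in 5C, again without overlap. Its means were 2.22 ± 0.317 and 1.79 ± 0.0816 (SD, n = 3 each; exact permutation test, p = 0.1, adjusted 0.25). *Igf2bp2* over *Igf2bp3* overlapped, at 0.643 ± 0.103 and 0.610 ± 0.0331 (SD, n = 3 each; exact permutation test, p = 0.7, adjusted 0.875). As a share of the summed per-kilobase level of the family, *Igf2bp1* was 44.1% to 47.5% in WT and 39.5% to 41.9% in 5C. *Igf2bp3* took 30.7% to 34.9% in WT and 35.5% to 38.4% in 5C, and *Igf2bp2* took 18.3% to 22.8% and 22.0% to 23.3%.

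**Figure D3:**
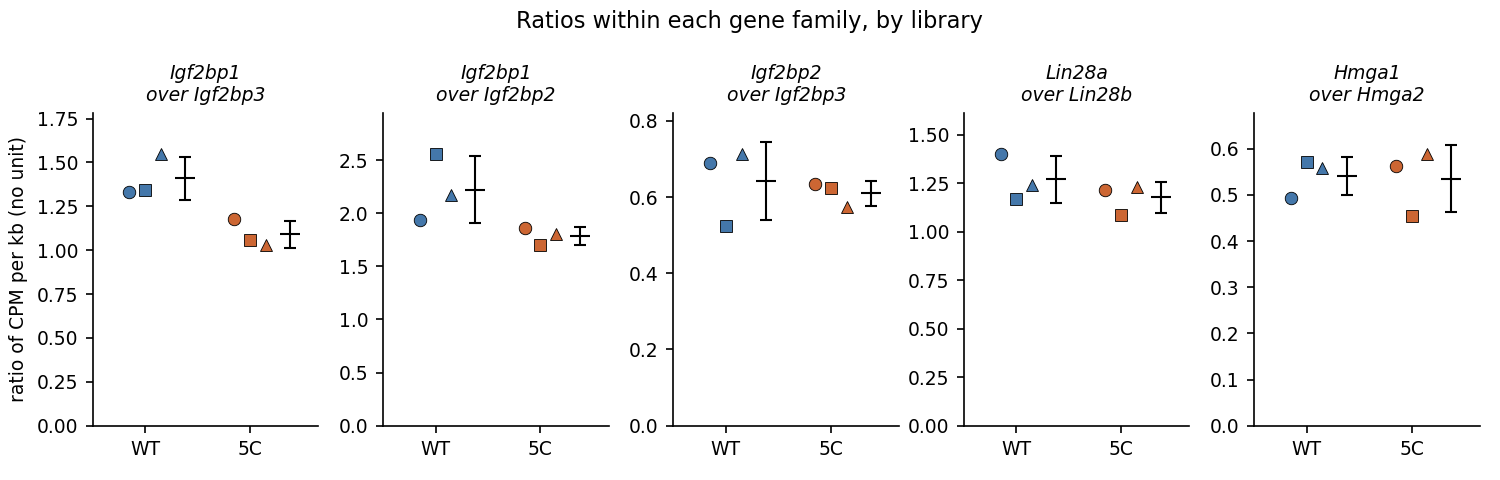
Ratios of CPM per kilobase of exon within each family (y axes from 0, no unit) by library, with mean ± SD (n = 3). The 2 ratios with *Igf2bp1* on top separate WT from 5C, as in *Igf2bp1* over *Igf2bp3* with means of 1.41 and 1.09, and the other 3 overlap.

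For both LIN28 genes, which keep let-7 low in early embryos, WT and 5C libraries overlapped. *Lin28a* (ENSMUSG00000050966; chromosome 4, 134003330 to 134018841, minus strand) gave 110, 135 and 125 CPM in the WT libraries, against 116, 103 and 139 CPM in the 5C libraries. The highest and the lowest value were both in 5C. Between genotypes, edgeR gave a difference of -0.05 on the log2 scale (SE 0.11, 95% interval -0.30 to 0.21; adjusted p 0.940).

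*Lin28b* (ENSMUSG00000063804; chromosome 10, 45376620 to 45486395, minus strand), the paralog often reactivated in tumours, gave 179, 262 and 229 CPM in the WT libraries, against 216, 216 and 255 CPM in the 5C libraries. The 5C values lay inside the WT range, which WT replicate 1 opened at its lower end. The fitted difference was 0.04 on the log2 scale (SE 0.13, 95% interval -0.25 to 0.33; adjusted p 0.964). The signs of both LIN28 differences turned with single libraries left out. *Lin28a* was 0.024 without WT replicate 2 and 0.038 without 5C replicate 2, and *Lin28b* was -0.10 without WT replicate 1 and -0.045 without 5C replicate 3. *Lin28a* over *Lin28b*, per kilobase, was 1.27 ± 0.120 in WT and 1.18 ± 0.0797 in 5C (SD, n = 3 each; exact permutation test, p = 0.4, adjusted 0.667), with overlap.

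For both chromatin factors the genotypes overlapped as well. *Hmga2* (ENSMUSG00000056758; chromosome 10, 120361275 to 120476469, minus strand), a regulator of body size, gave 272, 235 and 298 CPM in the WT libraries, against 242, 264 and 275 CPM in the 5C libraries. All 5C values fell inside the WT range. edgeR's estimate for 5C over WT was -0.04 on the log2 scale (SE 0.09, 95% interval -0.25 to 0.16; adjusted p 0.935). It was 0.030 without WT replicate 3 and 0.0090 without 5C replicate 1.

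*Hmga1* (ENSMUSG00000046711; chromosome 17, 27556497 to 27563674, plus strand), whose product binds the minor groove of AT-rich DNA, gave 42.2, 42.2 and 52.2 CPM in the WT libraries, against 42.8, 37.6 and 50.9 CPM in the 5C libraries. Replicate 3 was the highest library in both genotypes. 5C differed from WT by -0.05 on the log2 scale (SE 0.13, 95% interval -0.33 to 0.24; adjusted p 0.953). The sign turned to 0.027 with GC offsets, to 0.047 without WT replicate 3 and to 0.045 without 5C replicate 2. Reads that it shares with the copy *Hmga1b*, which held 1 to 8 counts per library, could not be placed. *Hmga1* over *Hmga2* was 0.541 ± 0.0414 in WT and 0.535 ± 0.0721 in 5C (SD, n = 3 each; exact permutation test, p = 0.9, adjusted 0.9).

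**Figure D4:**
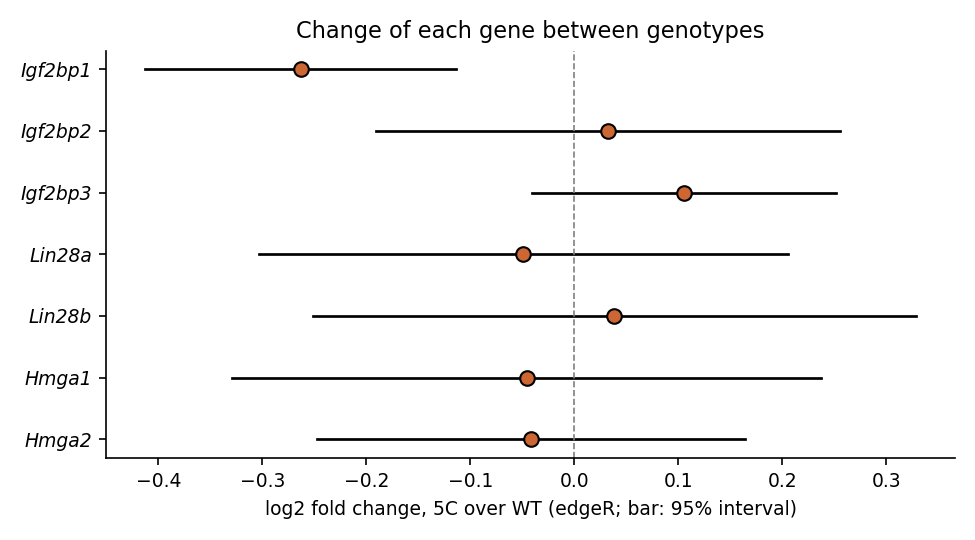
Log2 fold change of each gene, 5C over WT (dots, edgeR), with its 95% interval (bars). The interval of *Igf2bp1*, from -0.41 to -0.11, lies below 0, and those of the other 6 genes span 0.

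Levels can be ranked between genes only per length. Per kilobase of exon, the WT means were 62.4 ± 2.86 CPM for *Igf2bp1*, 44.4 ± 1.74 for *Igf2bp3*, 39.6 ± 4.64 for *Hmga2* and 30.9 ± 3.10 for *Lin28a* (SD, n = 3 each). *Igf2bp2* followed at 28.5 ± 4.18, *Lin28b* at 24.6 ± 4.64 and *Hmga1* at 21.4 ± 2.71 CPM per kilobase (SD, n = 3 each). Neighbours in this order overlapped across WT libraries except *Igf2bp1* and *Igf2bp3*, and *Hmga2* and *Lin28a*. The order depends on which length is used. With the longest coding transcript in place of all exon bases, *Igf2bp3* came first at 86.6, then *Hmga2* at 69.4, *Igf2bp1* at 66.1, *Igf2bp2* at 54.7, *Lin28b* at 41.9, *Lin28a* at 34.6 and *Hmga1* at 22.3 CPM per kilobase over all 6 libraries, so that *Igf2bp1* was no longer the most abundant.

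The factors that process let-7 precursors or control this step, as LIN28 does, formed a list of 9 genes. At an unadjusted p under 0.05, 1 was lower and 0 higher, beside 3.47% and 2.55% of all genes tested, and the median log2 fold change was -0.04 against -0.00 for all genes. *Trim71*, which encodes a stem cell RNA-binding protein, was lower in every 5C library, at 148 ± 7.03 CPM for WT against 126 ± 13.5 CPM for 5C (SD, n = 3 each). That is -0.23 on the log2 scale, with p 0.0239 before and 0.781 after adjustment in edgeR's test. *Tut4*, the terminal uridylyltransferase that LIN28A recruits to let-7 precursors, measured 289 ± 3.58 CPM for WT against 315 ± 15.9 CPM for 5C (SD, n = 3 each) without overlap. Its log2 fold change was 0.13 and that of its relative *Tut7* was 0.07, neither under an unadjusted p of 0.05.

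Among 23 genes known as let-7 targets, 3 were lower and 2 higher at an unadjusted p under 0.05, where all genes tested gave 3.47% and 2.55%. In all, 13 were lower and 10 higher, with a median log2 fold change of -0.04 (-0.00 for all genes). None of the 23 had an adjusted p under 0.05. *Trim71* and *Plagl2*, a zinc finger transcription factor, were lower, *Plagl2* at 49.2 ± 8.07 CPM for WT against 38.6 ± 4.29 CPM for 5C (SD, n = 3 each). *Plag1*, its paralog and a factor that promotes *Igf2* transcription, was higher, at 72.2 ± 4.62 and 82.1 ± 3.98 CPM (SD, n = 3 each). In edgeR's fit the pair differed by -0.34 and 0.19 on the log2 scale. *Ccnd2*, which encodes a cyclin, had a log2 fold change of -0.19, also at this p.

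Of 8 transcripts that IGF2BP proteins bind, 1 was lower and 0 higher at an unadjusted p under 0.05 (3.47% and 2.55% of all genes). Without regard to p, 4 were lower and 4 higher, and the median log2 fold change was -0.03 against -0.00. *H19*, the imprinted noncoding RNA next to *Igf2*, was 4565 ± 424 CPM for WT against 3773 ± 648 CPM for 5C (SD, n = 3 each). On the log2 scale it differed by -0.27, at an adjusted p of 0.781 in edgeR's test, and its groups overlapped. Of the 5723 exon bases of *Igf2*, whose locus carries the array, 3596 overlap another gene on the same strand. Counting by gene can leave reads there unassigned, and *Igf2* held only 98 to 322 counts per library. It gave 14.1 ± 4.95 CPM for WT against 10.1 ± 0.366 CPM for 5C (SD, n = 3 each). Its groups overlapped, with WT replicate 2, at 8.41 CPM, below every 5C library. The log2 fold change was -0.48 (unadjusted p 0.0732, edgeR's test) and may not stand for the whole transcript.

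Of 8 partners and targets of HMGA proteins, 6 were tested, and *Cdkn2a* and *Cdkn2b* were too low. At an unadjusted p under 0.05, 0 were lower and 2 higher, against 3.47% and 2.55% of all genes tested, and the median log2 fold change was 0.06 against -0.00. *Rb1*, the retinoblastoma gene whose product HMGA2 binds, was 54.1 ± 1.92 CPM for WT against 65.5 ± 3.76 CPM for 5C (SD, n = 3 each), above WT in every 5C library. Its log2 fold change was 0.28 (SE 0.07), with edgeR's unadjusted p at 0.00419 and its adjusted p at 0.781. *Plag1*, an HMGA2 target, was the other. *E2f1*, which RB1 restrains, had a log2 fold change of -0.17 and an unadjusted p of 0.132 in edgeR's test.

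Genes whose pattern over the 6 libraries was most like that of each oncofetal gene were found by the root mean square difference of their log2 deviations from their own mean, among 10349 genes of at least 10 CPM. *Lin28a* was closest to *Nr6a1*, a nuclear receptor gene with 8 let-7 matches, at a distance of 0.0228. *Igf2bp3* was closest to *Ppic* at 0.00637, *Hmga2* to *Raph1* at 0.0226 and *Igf2bp2* to *Ptms* at 0.0274. *Igf2bp1* was closest to *Slc12a9* and *Nisch*, at 0.0333 and 0.0335. *Lin28b* and *Hmga1* had no neighbour nearer than *Zfp7* at 0.0542 and *Cacna1a* at 0.0607. The 7 genes also differed in their own root mean square deviation, from 0.0715 for *Igf2bp3* to 0.182 for *Lin28b*, with *Hmga1* at 0.166. A flat gene lies near other flat genes, so these distances cannot be ranked between the 7. All of these distances rest on the same 6 libraries and their scaling, and they are descriptions without a test.

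**Figure D5:**
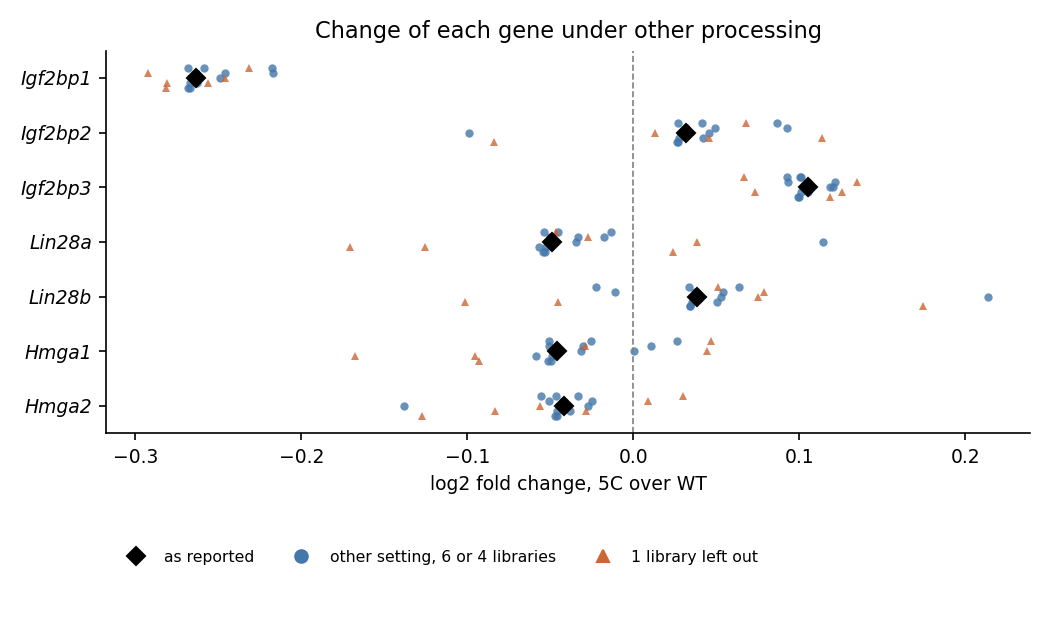
Log2 fold change of each gene (x axis, 5C over WT) as reported (black diamonds) and with 1 library left out (orange triangles). Blue circles are the other settings, among them scalings, filters, tests and the fit without both libraries low in Y-linked transcripts. *Igf2bp1* stays between -0.29 and -0.22 and *Igf2bp3* between 0.07 and 0.13, while the other 5 genes have points on both sides of 0.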

How the data were processed

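The authors extracted RNA from whole embryos, made poly(A)-selected stranded libraries, sequenced single-end reads, aligned them with STAR to GRCm38 and counted them for each Ensembl gene. The deposited counts are raw, whole and not normalized. Which strand column was used is not given in the sources used here. Symbols were found for 55141 of 55401 genes.

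From the counts, 5C was compared with WT in edgeR 4.0.16 (R 4.3.3) with the legacy quasi-likelihood F-test, TMM scaling, filterByExpr and two-sided p-values adjusted by Benjamini-Hochberg over 16784 genes. Floors of 3 counts cover counting error only. The biological coefficient of variation was 13.6%. DESeq2 1.42.0 and limma-voom (limma 3.58.1), other scalings and filters, GC offsets, a replicate block and libraries left out were alternatives.

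The genes and lists were chosen with earlier results of these data known. Named were all 7 genes, *Mir483*, *Igf2*, *H19*, the 3 smallest p-values of each list, overlapping genes and copies. *Ccnd2* was named after its value was seen. Some genes that the rule names are not reported here.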

Additional observations from a re-analysis of the deposited data

How the results depend on the processing

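*Igf2bp1* stayed lower at an unadjusted p under 0.05 in all 19 alternatives, from 1.36e-04 in DESeq2 (adjusted p 0.0856, the lowest of the 19) to 0.0295 with GC offsets and the replicate block, where the log2 fold change was -0.22. *Igf2bp3* stayed higher in all 19, with p from 0.0866 to 0.378. The number of the 7 genes at p under 0.05 was 1 in every alternative. The log2 ratio of *Igf2bp1* over *Igf2bp3* was -0.37, from -0.43 to -0.30 with each library left out and -0.31 with GC offsets, both chosen after the data were seen, as was the count over the 7 genes.

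Signs of changes near 0 turned, and the cause was not tested. Without both libraries low in Y-linked transcripts, *Igf2bp2* had a log2 fold change of -0.099, *Lin28a* 0.11 and *Hmga1* 0.00078. With GC offsets, alone and with the replicate block, *Lin28b* was -0.022 and -0.011 and *Hmga1* 0.027 and 0.011. With 1 library left out, log2 fold changes ran from -0.084 (without WT replicate 2) to 0.11 for *Igf2bp2*, from -0.17 to 0.038 (without 5C replicate 2, and 0.024 without WT replicate 2) for *Lin28a* and from -0.10 (without WT replicate 1, and -0.045 without 5C replicate 3) to 0.17 for *Lin28b*. They ran from -0.17 to 0.047 (without WT replicate 3, and 0.045 without 5C replicate 2) for *Hmga1* and from -0.13 to 0.030 (without WT replicate 3, and 0.0090 without 5C replicate 1) for *Hmga2*.

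Over all genes, the 0 genes past the adjusted threshold became 319 without a count filter, 11 in DESeq2, 3 with robust moderation and 0 to 1 with a library left out (1 without 5C replicate 2 or 3). The 1011 genes at an unadjusted p under 0.05 became 2170 without a filter, 508 with GC offsets and the replicate block, and 456 (without 5C replicate 2) to 1803 (without WT replicate 2) with a library left out. The split of 583 lower and 428 higher became 445 and 605 with library size alone, 404 and 409 with GC offsets and 690 and 196 without both low-Y libraries.

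Correlations of deviations from the group means ran from -0.174 to 0.202 over the 3 pairs of equal replicate number. For pairs of unlike number they ran from -0.199 to 0.307. With groups of 3, these values cannot decide whether equal numbers pair the libraries. With the replicate number as a block, 0 genes passed the adjusted threshold, 782 had an unadjusted p under 0.05 and *Igf2bp1* had a p of 0.00784 and an adjusted p of 0.888. With 3 libraries a group, the 95% intervals of the 6 genes other than *Igf2bp1* reached to -0.33 and 0.33 on the log2 scale, so differences within those bounds could be present without being detected.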

Other observations

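*Igf2bp1*, *Lin28b* and *Hmga2* belong to 12 tested genes with 4 or more let-7 matches in the 3′ UTR. *Nr6a1* held 8 matches, *Mcf2l* 7 and *Trim6* 6, and *Trim71*, *Hic2*, *Nudt12*, *Ptafr*, *Zbtb37* and *D10Wsu102e* held 4 each. The 3′ UTRs of *D10Wsu102e* and *Zbtb37*, both lower in 5C, were 122583 and 16999 bases long. A window of such length holds more matches of any kind. In 5C, 10 of the 12 were lower and 2 were higher (*Lin28b* and *Nudt12*), against 50.7% of all genes tested lower, with a median log2 fold change of -0.11. With GC offsets, again 10 were lower and 2 higher, against 45.6% lower of all genes, and without both libraries low in Y-linked transcripts 9 were lower and 3 higher. Of the 12, 2 had an unadjusted p under 0.05 in edgeR's quasi-likelihood test, *Igf2bp1* and *Trim71*, both lower. Of all genes tested, 3.47% were lower at that p. With GC offsets the 2 became 4, where 813 of 16784 genes reached that p. Without both low-Y libraries the count was 1, where 886 of 17355 genes did. In each of these fits, 0 of the 12 had an adjusted p under 0.05. The limit of 4 matches was set after the matches of the 7 genes were seen, and no test was made. The 1471 tested genes with any let-7 match had a median log2 fold change of -0.03, and those without had -0.00. Genes with a miR-483-3p match had -0.02 and those with a miR-483-5p match -0.04, each against -0.00 without. Whether these differences bear on any of the microRNAs was not tested, and 3′ UTRs with a match were longer in each case.

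Counts at annotated let-7 hairpins cannot show mature let-7. Of 11 such hairpins, 6 had 0 counts in all 6 libraries. Those 6 lie wholly under exons of another gene on the same strand, where counting by gene can leave reads unassigned, so their 0 does not show a lack of transcript. *Mirlet7a-2*, the most counted of the other 5, had 12, 13 and 4 counts in WT and 15, 12 and 14 in 5C. In these libraries, the level of let-7 in 5C embryos was therefore not measured.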
